A study of Mus musculus with 23 samples.

Results

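The comparison was between left ventricles of FVB mice that breathed e-cigarette vehicle aerosol and left ventricles of FVB mice that breathed filtered air, with exposure starting at an age of 3 months. It rests on 8 RNA-seq libraries out of 23 in the series, 4 per group, taken by their titles and treatment labels. That these 8 alone enter the main fit was decided with earlier results of these data known, and the number of genes called depends on it, as given with the counts. Air libraries carry the replicate numbers 1, 2, 4 and 5 and vehicle libraries the numbers 1, 2, 3 and 4. Both groups shared strain, tissue, starting age and schedule, which was 4 hours a day on 5 days a week for 3 months. By its label the vehicle carried no nicotine, and its composition is not spelled out in the labels. Another group of the same starting age breathed the vehicle with nicotine (4 libraries), and the remaining 11 libraries came from mice that started at 3 weeks. The labels do not say that each library is a separate animal, so p-values measure the spread between these libraries, which may be in part technical, and they give no sex, batch or time of day. The question the contrast addresses is what the carrier aerosol, without nicotine, goes along with in the ventricle of mice that were adult when exposure began.

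As background, each heartbeat begins with sodium, calcium and potassium currents across the cardiomyocyte membrane, which release calcium from the sarcoplasmic reticulum, and the sarcomere shortens until that calcium is pumped back. The work is paid for by mitochondria that burn mostly fatty acids. Under load, rodent ventricles are known to shift towards the fetal myosin heavy chain and natriuretic peptides, and immediate early genes answer stretch, growth factors and injury within minutes to hours. Changes in RNA of a whole ventricle piece combine these cardiomyocyte programmes with endothelial, stromal and immune cells, and fewer cells of a type cannot be told apart from less RNA per cell in such samples.

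Total counts in genes were 14596003 to 17821550 per air library and 15479065 to 17364061 per vehicle library. Ventricular cardiomyocyte markers fixed as a check added up to 84590.0 to 94946 CPM (counts scaled to library size) in air and 82188 to 87187 in vehicle. Of these 8 markers 4 rose and 3 fell (4 and 2 with the length offset described with the trend on exonic length), from −1.08 for Ryr2 to 0.42 for Myl2 on the log2 scale. The lower count was 1 without air replicate 2 or 5 or vehicle replicate 2 or 3. None of the 6 lung epithelium markers had enough counts to be tested. All CPM below use TMM scaling over these 8 libraries unless stated otherwise. Mitochondrially encoded transcripts took 8.48 to 9.39% of counts in air and 7.86 to 9.30% in vehicle. Vehicle replicate 4 stood apart from the other vehicle libraries on the first axis of a principal component analysis of the 12 libraries of this starting age, at 4.08 against −12.3 to −10.8. Air replicate 1 stood apart from the other air libraries on the same axis, on the side of the vehicle libraries, at −3.99 against 7.17 to 12.6. Without the former 2350 and without the latter 2174 genes were called in place of the 2635 given next.

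Atrial cardiomyocyte markers varied within each group. Myl7, the atrial regulatory light chain, was at 0.681, 10.1, 14.1 and 40.7 CPM in air, and in vehicle at 3.26 CPM in replicate 4 and at most 0.061 CPM in the other 3. Myl4, the atrial essential light chain, was at 2.31, 15.5, 20.2 and 61.2 CPM in air and 1.69, 1.83, 2.01 and 6.70 CPM in vehicle. Both were highest in air replicate 5, low in air replicate 1 and, among vehicle libraries, highest in vehicle replicate 4. The groups overlapped, and neither gene passed (−4.33 at an adjusted p of 0.0932 and −3.03 at an adjusted p of 0.0915). Of 8 atrial markers 5 were tested, with a median log2 fold change of −0.85 and 3 below 0. The 1 called was Stard10, which was higher (0.25, adjusted p = 0.0334) and was not called with the offset (adjusted p = 0.139), and 1 was called lower and none higher without air replicate 1. The 5 tested markers summed to 124 to 314 CPM in air and 165 to 237 CPM in vehicle, and Nppa was the largest part of this sum in every library. Their mean log2 CPM, which weighs each gene alike, ran from 2.69 to 5.48 in air and 2.27 to 4.06 in vehicle. Sln and Mybphl, with up to 199 and 98 counts in a library, fell below the filter and are left out of these values. The part of atrial RNA in the differences below was not tested.

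A total of 2635 of 14344 genes passed an adjusted p of 0.05 (18.4% called; edgeR quasi-likelihood test, Benjamini-Hochberg over all genes tested). Of these, 1097 rose with vehicle (7.65% of genes tested) and 1538 fell (10.7%). Counts in the gene lists below stand beside these shares. Changes of single genes are given throughout as log2 fold changes, vehicle minus air. Most were small: the median absolute log2 fold change of the called genes was 0.39, and 115 genes changed by more than 1 on the log2 scale. The lowest air library was above the highest vehicle library in 12.2% of genes tested, and the reverse held in 9.46%. Without vehicle replicate 2, vehicle replicate 3 or air replicate 5 the count dropped to 1314, 1431 and 1525, and 1162 genes passed in each of the 8 fits that left out a library. No gene passed when all 23 libraries shared a single estimate of the spread, where 2200 of 15500 genes had an unadjusted p under 0.05 and each of the 2635 genes kept its sign.

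The direction of change followed exonic length, counted here as all bases in any annotated exon of the gene. With many annotated isoforms this can exceed the length of any single transcript, and transcript lengths themselves were not measured. Median log2 fold change went from 0.22 for genes with up to 1 kb of exons to −0.18 for genes with more than 12 kb, and across 14322 genes, which are not independent replicates, Spearman's rho between fold change and exonic length was −0.335. Each vehicle library had relatively less of the genes with a long exonic length. Against the mean of the 12 libraries of this starting age, rho was −0.301 to −0.213 in vehicle libraries and 0.0103 to 0.308 in air libraries. The trend moved with the group, and its part in single genes cannot be told apart from other differences between the groups, so each count of a gene list below is followed by the count from a fit with a length offset, in which the smooth trend of every library on exonic length was removed before testing. That fit called 1879 genes (13.1%), 854 higher (5.95%) and 1025 lower (7.15%), and 1596 genes were called the same way in both fits.

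**Figure D1:**
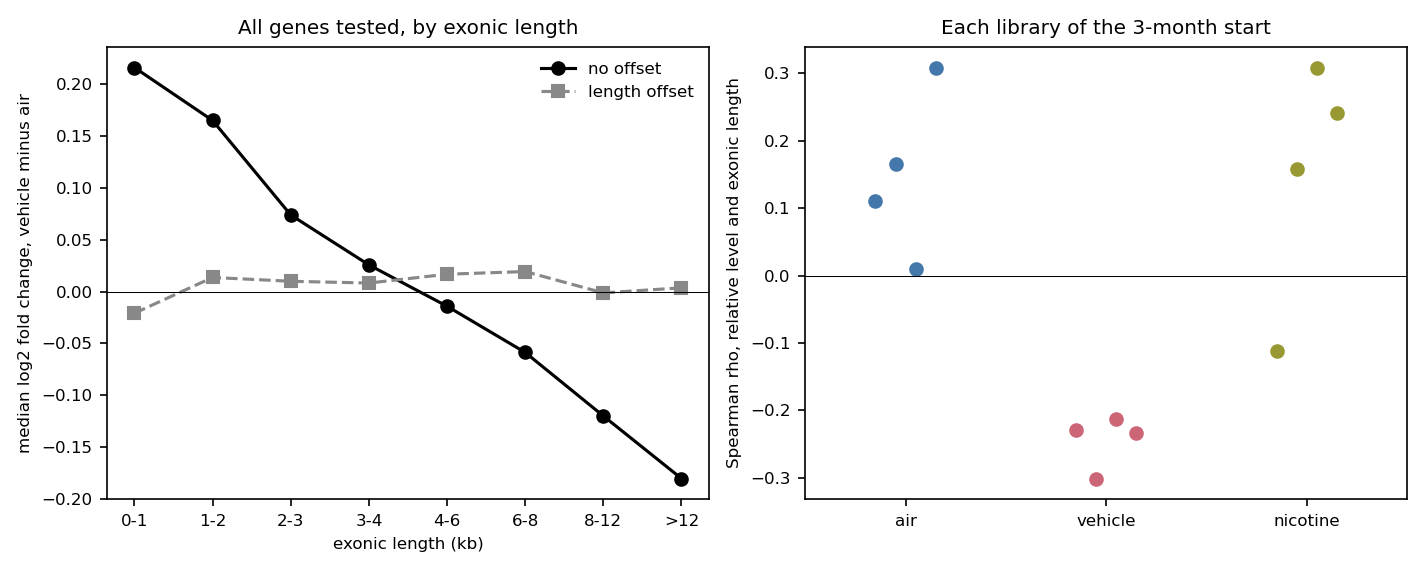
Left, median log2 fold change (vehicle minus air) of the genes tested, in bins of exonic length in kb, without an offset (black circles) and with the length offset (grey squares). Right, Spearman's rho between a gene's level relative to the mean of the libraries shown and its exonic length, with 1 point per library. The vehicle points lie between −0.301 and −0.213, below every air point, and the nicotine points run from −0.11 to 0.309.

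Most of the calcium cycling genes fell. Among 17 tested members of the calcium handling list, 10 were lower and 1 was higher, with a median log2 fold change of −0.33 against 0.01 over all genes tested. The length offset left 7 lower and 1 higher. Atp2a2, which encodes the pump that returns calcium to the sarcoplasmic reticulum, stood at 14786, 18488, 14332 and 18243 CPM in air replicates 1, 2, 4 and 5 and at 11278, 8477, 9679 and 9585 CPM in vehicle replicates 1 to 4. Its log2 fold change was −0.76 (SE 0.10, adjusted p = 0.0021), and the groups did not overlap. Ryr2, the calcium release channel of the same store, was measured at 1445, 1942, 1345 and 2094 CPM in air and 915, 712, 753 and 843 CPM in vehicle, a change of −1.08 (SE 0.14, adjusted p = 0.00237). For Slc8a1, the sodium-calcium exchanger of the surface membrane, air libraries held 110.0, 198, 126 and 211 CPM and vehicle libraries 61.4, 33.4, 47.5 and 53.2, and the log2 fold change of −1.72 (SE 0.27, adjusted p = 0.00633) was the most negative of the list. Air replicates 2 and 5 were the high libraries for all 3 genes, and the lowest air library still lay above the highest vehicle library in each. Jph2, which ties the release sites to the membrane, and Srl, a luminal calcium binding protein, fell by smaller amounts (−0.36 at an adjusted p of 0.00581 and −0.45 at an adjusted p of 0.00259). S100a1, a small calcium sensor protein of cardiomyocytes, was the exception that rose (0.28, adjusted p = 0.00991). The length offset kept the calls of Atp2a2, Ryr2 and Slc8a1, at adjusted p of 0.00292, 0.00398 and 0.0104.

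Ion channel transcripts had the lowest median of the 35 lists of pathways and complexes. Of 19 tested channel subunits, 13 fell and none rose (median −0.42), and 11 were called lower with the length offset. Kcnh2 encodes the pore of the rapid delayed rectifier potassium current, which helps end the action potential. It ranged over 106, 136, 121 and 122 CPM in air and 86.9, 80.3, 85.2 and 91.4 CPM in vehicle, a difference of −0.49 (SE 0.08, adjusted p = 0.00262). Scn4b, an accessory sodium channel subunit, was at 107, 134, 111 and 125 CPM in air and 94.3, 82.5, 85.7 and 71.8 CPM in vehicle (−0.52, adjusted p = 0.00406). Kcnj5, a subunit of the acetylcholine-gated potassium channel, and Hcn2, a pacemaker channel, fell as well (−0.53 at an adjusted p of 0.00579 and −0.42 at an adjusted p of 0.00624). Scn4a, the sodium channel best known from skeletal muscle, was outside the list but among the 10 lower genes with the smallest p values, at 56.1, 63.5, 51.3 and 58.7 CPM in air and 30.9, 30.6, 21.8 and 23.8 CPM in vehicle (−1.10, SE 0.11, adjusted p = 0.000842). No vehicle library reached the lowest air library for any of these 5 genes.

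**Figure D2:**
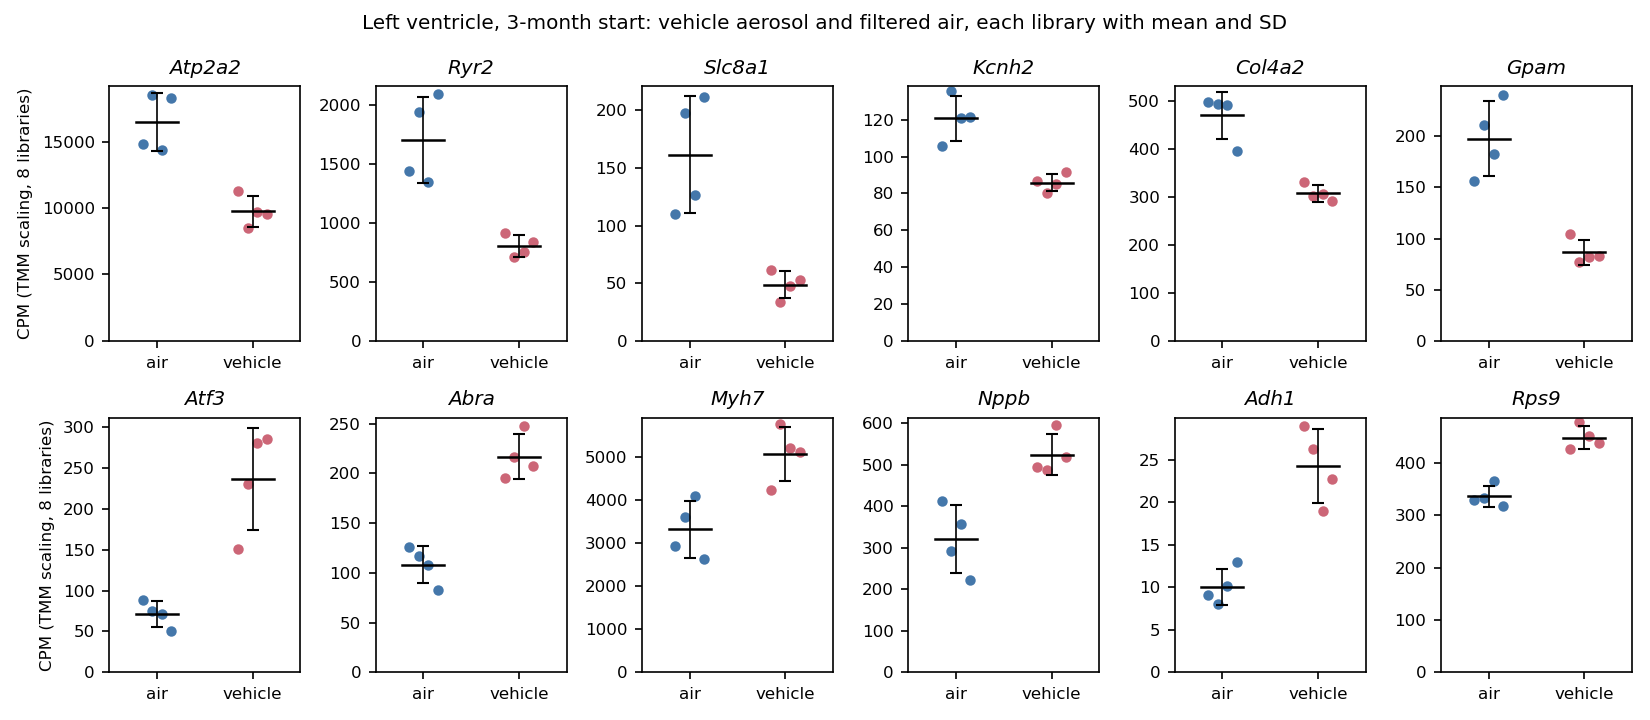
Level of 12 genes in each library of the 3-month start (CPM, TMM scaling over 8 libraries; points are libraries, the bar is the group mean and the whisker 1 SD). The 6 genes of the upper row were lower in all 4 vehicle libraries than in any air library, and the 6 of the lower row were higher in all 4.

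At the intercalated disc, where neighbouring cardiomyocytes adhere and couple, 8 of 13 tested connexin and desmosome genes fell and 1 rose. The offset fit called 4 lower and 1 higher, and the lower count was 4 or 5 without air replicate 2 or 5 or vehicle replicate 2, 3 or 4. Desmoplakin (Dsp), which anchors the desmosome to intermediate filaments, was at 1738, 2315, 1782 and 2296 CPM in air and 1456, 1141, 1301 and 1400.2 CPM in vehicle, a change of −0.62 (SE 0.11, adjusted p = 0.00442). Cdh2, the adhesion cadherin of the disc, changed by −0.60 (SE 0.08, adjusted p = 0.00169) and Dsg2, a desmosomal cadherin, by −0.40 (SE 0.09, adjusted p = 0.0102). Gjc1, a connexin that is low in working ventricle, was the member that rose (0.43, adjusted p = 0.00656).

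Adrenergic and muscarinic signalling, which raise and lower the force and rate of contraction, largely through cyclic AMP, showed together 7 lower genes and 1 higher gene among 20 tested, and 4 lower and none higher with the offset. Adcy5, a main adenylyl cyclase of the heart, was at 141, 192, 145 and 159.8 CPM in air and 118, 86.0, 99.6 and 115 in vehicle (−0.61, SE 0.12, adjusted p = 0.0059). Akap6, a scaffold for protein kinase A, and Prkar2a, a regulatory subunit of that kinase, changed by −0.55 at an adjusted p of 0.00557 and −0.48 at an adjusted p of 0.00609. Pde3a, a phosphodiesterase that breaks down cyclic AMP, fell by less (−0.36, adjusted p = 0.0101), and its call was lost with the offset (adjusted p = 0.0947). The lower count of the list was 4 without air replicate 2, vehicle replicate 3 or vehicle replicate 4.

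Sarcomere genes moved both ways. Among 26 tested, 11 rose and 5 fell, and with the offset 8 rose and 1 fell. The members that rose included Myl2 and Myl3, the ventricular myosin light chains (0.42 at an adjusted p of 0.00382 and 0.30 at an adjusted p of 0.00579), Tnni3, the inhibitory troponin (0.35, adjusted p = 0.00503), and Myom2, an M-band protein (0.41, adjusted p = 0.00408). The 5 that fell were Ttn, Nebl, Myom1, Actc1 and Myh6, at −0.46, −0.57, −0.28, −0.20 and −0.20. Actc1, cardiac actin, was the member still called lower with the offset (adjusted p = 0.00472). Without vehicle replicate 2 the higher count was 5 and the lower count 2, and without air replicate 2 or 5 or vehicle replicate 3 or 4 the lower count was 2 or 3.

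The myosin heavy chains and natriuretic peptides are the usual readout of hypertrophic stress in rodent ventricle. Myh7, the slow isoform that is abundant before birth, read 2947, 3621, 4097 and 2634 CPM in air and 4237, 5766, 5206 and 5109.6 CPM in vehicle, with non-overlapping groups and a log2 fold change of 0.61 (SE 0.14, adjusted p = 0.0146). Without vehicle replicate 2 its adjusted p was 0.0527. Myh6, the fast adult isoform, read 42032, 48769.7, 40439 and 43619 CPM in air and 38518, 36907, 37038 and 40023 CPM in vehicle, and its small change of −0.20 (SE 0.06, adjusted p = 0.0405) was not called with the offset (adjusted p = 0.173), nor without air replicates 1, 2 or 5 or vehicle replicates 1, 2 or 3. Nppb, B-type natriuretic peptide, was at 412, 293, 357 and 222 CPM in air and 495, 487, 595 and 519.8 CPM in vehicle. It rose by 0.71 (SE 0.16, adjusted p = 0.0174), but passed neither with the offset (adjusted p = 0.0684) nor without air replicate 2 (0.0763) or vehicle replicate 2 (0.0534). Nppa, the atrial peptide, was spread over 93.5, 121, 244 and 153 CPM in air and 155, 131, 199 and 151 CPM in vehicle and did not pass (0.06, adjusted p = 0.919). Acta1 and Ankrd1, markers of load on the cardiomyocyte, did not pass either (−0.27 at an adjusted p of 0.628 and 0.25 at an adjusted p of 0.0986).

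Abra, an actin binding activator of the SRF pathway in striated muscle, gave the clearest difference among the 12 stress genes tested. Its levels were 126, 117, 108 and 82.9 CPM in air and 195, 216, 248 and 207 CPM in vehicle, a change of 0.999 (SE 0.12, adjusted p = 0.00117), and every vehicle library lay above every air library. Ccn2, a matricellular protein, also rose (0.33, adjusted p = 0.00881). In all, 5 of the 12 were higher and none lower, against 4 higher and 1 lower with the offset. With a library left out the higher count was 3 or 4, and it was 3 without vehicle replicate 2.

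Atf3 led the rises among the immediate early genes. Of 21 tested, 9 were higher and none lower (median 0.62, the highest of the 35 lists of pathways and complexes), and 7 were higher with the offset. Atf3, a stress-induced transcription factor of the ATF/CREB family, read 87.9, 75.3, 71.1 and 50.1 CPM in air and 150.4, 231, 279.8 and 285 CPM in vehicle. Its log2 fold change of 1.73 (SE 0.24, adjusted p = 0.00419) was the largest rise among the named genes. Ier5 and Klf4, which are induced by growth factors and stress, changed by 0.75 at an adjusted p of 0.00415 and 0.50 at an adjusted p of 0.00646. Jund, the AP-1 member with steady expression, rose by less (0.32, adjusted p = 0.00667).

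Feedback genes of the ERK pathway are switched on by ERK signalling and dampen it, and 5 of 14 rose with none lower (4 with the offset). Phlda1, an early response gene of that pathway, was at 28.1, 25.3, 21.7 and 18.0 CPM in air and 65.5, 49.0, 62.7 and 42.2 CPM in vehicle, a change of 1.24 (SE 0.16, adjusted p = 0.00232). Dusp1, a phosphatase that inactivates MAP kinases, was at 384, 287, 311 and 350.2 CPM in air and 444, 524, 499.9 and 500.4 CPM in vehicle (0.56, SE 0.09, adjusted p = 0.00237). Etv5, an ETS factor downstream of ERK, changed by 0.50 at an adjusted p of 0.0107. The count was 3 without air replicate 2, 4 or 5 or vehicle replicate 3.

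Among 17 heat shock genes 4 rose and 1 fell, and the same number rose with the offset and none fell. Dnajb1, a co-chaperone of Hsp70, was measured at 19.8, 17.9, 20.7 and 18.8 CPM in air and 26.6, 28.7, 30.9 and 29.8 CPM in vehicle (0.59, SE 0.08, adjusted p = 0.00169). Hspb1, the small heat shock protein abundant in muscle, changed by 0.49 (SE 0.10, adjusted p = 0.00579), Dnaja1, another co-chaperone, by 0.39 (SE 0.09, adjusted p = 0.0114), and Hspa8, the constitutive Hsp70, by 0.29 (SE 0.07, adjusted p = 0.011). Hspa4 was the member that fell (−0.23, adjusted p = 0.0389).

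Promoter windows of 3 of these genes are shown because each holds a short motif of the factor family known to act on such genes. The windows run from 250 bases before to 50 after the RefSeq start site on GRCm38.p6, written 5′ to 3′ on the gene's strand. Capitals in the Atf3 window (chr1:191183284-191183583, minus strand) mark ACGTCA, the core of the cyclic AMP response element that ATF/CREB proteins bind. Capitals in the Hspb1 (chr5:135887669-135887968, plus strand) and Dnaja1 (chr4:40722218-40722517, plus strand) windows mark GAANNTTC, a pair of inverted heat shock element units. Both strands were searched. In RefSeq as a whole, 7.51% of 32851 such windows hold ACGTCA and 7.86% hold GAANNTTC, so a match describes the window and is not evidence of binding.
Atf3: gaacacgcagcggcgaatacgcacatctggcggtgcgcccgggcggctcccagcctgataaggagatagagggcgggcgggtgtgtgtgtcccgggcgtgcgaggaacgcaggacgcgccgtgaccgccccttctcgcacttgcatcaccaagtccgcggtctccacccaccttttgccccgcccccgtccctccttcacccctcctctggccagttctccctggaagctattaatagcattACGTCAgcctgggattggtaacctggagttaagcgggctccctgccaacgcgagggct
Hspb1: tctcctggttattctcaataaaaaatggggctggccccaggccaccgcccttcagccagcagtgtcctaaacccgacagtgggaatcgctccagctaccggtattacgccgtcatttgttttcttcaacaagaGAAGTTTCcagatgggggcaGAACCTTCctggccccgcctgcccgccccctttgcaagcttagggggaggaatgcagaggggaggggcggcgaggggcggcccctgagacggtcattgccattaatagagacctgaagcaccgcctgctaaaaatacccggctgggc
Dnaja1: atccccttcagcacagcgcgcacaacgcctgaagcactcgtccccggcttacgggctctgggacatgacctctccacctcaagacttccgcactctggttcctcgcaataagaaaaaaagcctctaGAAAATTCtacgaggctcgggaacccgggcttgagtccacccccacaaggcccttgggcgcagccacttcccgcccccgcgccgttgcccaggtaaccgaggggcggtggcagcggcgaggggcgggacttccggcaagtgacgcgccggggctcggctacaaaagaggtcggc
The match in the Atf3 window starts 8 bases before the start site, and the Hspb1 window holds 2 matches.

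Among matrix genes more fell than rose. Of 19 basement membrane genes tested 7 fell and 2 rose (4 and 2 with the offset), and of 25 interstitial matrix and crosslinking genes 7 fell and 1 rose (3 and 1 with the offset; 3 fell without vehicle replicate 2). Col4a1 and Col4a2 encode the alpha chains of the common type IV collagen network. Col4a2 was at 497, 494, 492 and 395 CPM in air and 331, 301, 306 and 290.4 CPM in vehicle (−0.61, SE 0.08, adjusted p = 0.00125), and Col4a1 at 633, 581, 641 and 469.9 CPM and 441, 419, 411 and 387 CPM (−0.49, SE 0.09, adjusted p = 0.00432). Air replicate 5 was the lowest air library for both and still lay above every vehicle library. Col15a1, a collagen at the outer face of basement membranes, changed by −0.57 (SE 0.09, adjusted p = 0.00217). Fbn1, fibrillin of the elastic microfibril, showed 71.5, 61.1, 67.9 and 61.9 CPM in air and 35.2, 35.7, 44.6 and 41.7 CPM in vehicle (−0.74, SE 0.09, adjusted p = 0.00112). Loxl1, an elastin crosslinking enzyme, and Col6a2 fell by less (−0.43 at an adjusted p of 0.00531 and −0.38 at an adjusted p of 0.00844), the latter not called with the offset (adjusted p = 0.0551). Col1a1 and Postn, markers of fibrotic activation, did not pass (−0.35 at an adjusted p of 0.124 and −0.13 at an adjusted p of 0.632). None of the 9 fibroblast markers was called in either fit, with summed levels of 2624 to 2971 CPM in air and 2689 to 2996 CPM in vehicle.

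Col4a1 and Col4a2 lie head to head and share a promoter, and their windows are printed for that reason. The start sites in RefSeq are 21 bases apart on chromosome 8 (GRCm38.p6), Col4a1 on the minus strand (chr8:11312777-11313076) and Col4a2 on the plus strand (chr8:11312555-11312854). Capitals mark the 78 bases that both windows hold, read on opposite strands.
Col4a1: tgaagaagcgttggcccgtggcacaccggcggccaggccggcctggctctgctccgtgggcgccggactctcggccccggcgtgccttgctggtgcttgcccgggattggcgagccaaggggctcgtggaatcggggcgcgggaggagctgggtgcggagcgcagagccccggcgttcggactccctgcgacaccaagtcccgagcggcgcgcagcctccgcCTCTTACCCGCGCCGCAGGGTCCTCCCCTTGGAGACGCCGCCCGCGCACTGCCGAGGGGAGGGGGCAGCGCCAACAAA
Col4a2: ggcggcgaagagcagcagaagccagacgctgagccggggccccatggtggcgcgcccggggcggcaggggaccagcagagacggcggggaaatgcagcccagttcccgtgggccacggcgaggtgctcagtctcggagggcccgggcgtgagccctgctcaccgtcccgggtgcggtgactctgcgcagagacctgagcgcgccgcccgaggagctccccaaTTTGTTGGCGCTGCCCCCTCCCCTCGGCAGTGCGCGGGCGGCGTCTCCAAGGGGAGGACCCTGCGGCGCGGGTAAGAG
Of the shared bases 73.1% are G or C. Both genes were lower in all 4 vehicle libraries than in any air library.

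Most cytosolic ribosomal protein genes rose, each by a small amount. Of 79 cytosolic ribosomal protein genes tested, 74 were higher and none lower (median 0.34), against 47 higher with the offset (median exonic length 1770 bases, median change with the offset 0.22). Rps9 was at 329, 332, 365 and 318 CPM in air and 425, 478, 450.2 and 439 CPM in vehicle (0.42, SE 0.06, adjusted p = 0.00237). Rps20 was at 124, 124, 125 and 120.3 CPM in air and 154, 187, 172 and 156 CPM in vehicle (0.44, adjusted p = 0.00279), and Rps27 changed by 0.43 at an adjusted p of 0.00307. Rpl36 rose by the same size (0.43, adjusted p = 0.00307) but was not called with the offset (adjusted p = 0.113). Many of these genes have near-identical pseudogenes, and how shared reads were counted is not given, so single members are uncertain. Mitochondrial ribosomal proteins moved less: 16 of 77 were higher and 1 lower (11 and 2 with the offset). With a library left out the higher count was 5 to 14, and it was 5 to 10 without air replicates 1, 2 or 5 or vehicle replicate 2.

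Ribosomal protein genes are known for a run of pyrimidines at the start of the transcript. In Rps9 (chr7:3704011-3704060, plus strand) and Rps27 (chr3:90213629-90213678, minus strand), 50 bases around the RefSeq start are shown with that run in capitals.
Rps9: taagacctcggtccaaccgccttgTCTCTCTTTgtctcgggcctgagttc
Rps27: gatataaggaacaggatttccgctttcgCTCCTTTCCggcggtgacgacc
A run of at least 6 pyrimidines at that place was found in 22 of the 59 ribosomal protein genes that have a window in the RefSeq table (37.3%) and in 14.4% of 27025 genes.

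The proteasome, which degrades tagged proteins, had 14 of 27 subunits higher and none lower (7 with the offset). Psmb4, a core subunit, read 161, 161, 175 and 157 CPM in air and 207, 218, 204 and 189.9 CPM in vehicle (0.33, SE 0.07, adjusted p = 0.00598). The higher count was 8 without air replicate 2 or 5, 6 without vehicle replicate 2 and 5 without vehicle replicate 3. In contrast, some muscle ubiquitin ligases of the atrophy programme fell: Fbxo32 was at 209, 212, 203 and 249 CPM in air and 133, 146, 130.4 and 166 CPM in vehicle (−0.60, SE 0.09, adjusted p = 0.0021), and Trim63 changed by −0.37 (SE 0.07, adjusted p = 0.00579). Of that list of 13, 4 fell and 2 rose (4 and none with the offset; 2 fell without air replicate 2 or vehicle replicate 2 or 3).

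Genes of energy metabolism moved both ways. Nuclear genes of oxidative phosphorylation rose in 27 of 48 cases and fell in 2, Ndufs1 and Sdha (−0.32 at an adjusted p of 0.00789 and −0.27 at an adjusted p of 0.0117). The median exonic length of the list is 2101 bases, and the offset fit called 9 higher and 2 lower. Without air replicate 5 or vehicle replicate 2 the higher count was 17 or 16. Cox6c, a subunit of cytochrome oxidase, was at 828, 772, 808 and 733 CPM in air and 1056, 1135, 981 and 1002 CPM in vehicle (0.41, SE 0.06, adjusted p = 0.00247). Its call held with the offset (adjusted p = 0.00374), whereas that of Cox8b did not (0.42, adjusted p = 0.0021, and 0.162 with the offset). The exonic length is 3567 bases for Cox6c and 360 for Cox8b, and the changes with the offset were 0.40 and 0.14. The offset depends on exonic length, so these outcomes do not separate the genes. Atpif1, the inhibitor of the mitochondrial ATP synthase, was one of the rises with the smallest p values, at 86.1, 97.5, 99.99 and 92.5 CPM in air and 152, 149, 134 and 137 CPM in vehicle (0.60, SE 0.07, adjusted p = 0.00111). The 13 mitochondrially encoded genes had 2 higher members, mt-Nd4 and mt-Nd6 (0.23 at an adjusted p of 0.0445 and 0.49 at an adjusted p of 0.0103), neither called with the offset, which called 2 others lower. Without any single air library, or without vehicle replicate 1, 2 or 3, mt-Nd4 did not pass (adjusted p of 0.0539 to 0.157). The genes mt-Nd4 and mt-Nd6 lie on different strands of the mitochondrial genome, and the strand setting of the counting is not given.

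Several transcription factors that drive mitochondrial and fatty acid genes fell. Of 14 mitochondrial regulators 6 fell and none rose (5 with the offset), among them Esrrg, an oestrogen-related receptor of oxidative muscle (−0.53, SE 0.10, adjusted p = 0.00467), and Gabpa (−0.37, adjusted p = 0.00759). Ppara, the receptor that switches on fatty acid oxidation, was at 23.2, 38.6, 22.1 and 38.7 CPM in air and 16.5, 10.8, 14.9 and 14.4 CPM in vehicle (−1.11, SE 0.21, adjusted p = 0.00793). Acsl1, which activates long fatty acids for oxidation, changed by −0.47 (SE 0.08, adjusted p = 0.00398). In the fatty acid oxidation list, 6 of 30 fell and 3 rose (4 and 1 with the offset). The lower count was 3 without air replicate 2 or vehicle replicate 3. With a library left out 1 or 2 rose, and it was 1 without air replicate 2 or 5 or vehicle replicate 1 or 2. Pdk4, a sensitive target of PPAR-alpha, did not pass, with 763, 596, 956 and 729 CPM in air and 744, 967, 536 and 392 CPM in vehicle.

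Gpam, which makes the first step from glycerol phosphate to triglyceride, had one of the larger falls. Its levels were 156, 211, 182 and 241 CPM in air and 104, 76.6, 82.3 and 82.5 CPM in vehicle, a change of −1.19 (SE 0.13, adjusted p = 0.00112). Lpin1, which acts later in the same pathway, changed by −0.70 (SE 0.14, adjusted p = 0.0101) and Abhd5, the activator of the first triglyceride lipase, by −0.44 (SE 0.09, adjusted p = 0.00656). Glycerol is taken up through Aqp7 and phosphorylated by Gk, and neither passed (0.29 at an adjusted p of 0.322 and −0.26 at an adjusted p of 0.101); for Gk the adjusted p was 0.014 without vehicle replicate 1. Of the 22 genes of this list 4 fell and 3 rose, with the same counts under the offset, and without vehicle replicate 1 the counts were 7 and 5, and 1 or none rose without air replicate 5 or vehicle replicate 2. In glycolysis, Hk2, the insulin-regulated hexokinase, and Pdha1, a subunit of pyruvate dehydrogenase, fell (−0.39 at an adjusted p of 0.00941 and −0.33 at an adjusted p of 0.00607), while Pgam2, the muscle phosphoglycerate mutase, rose, with 597, 665, 629 and 603 CPM in air and 854, 893, 838 and 838 CPM in vehicle (0.46, SE 0.06, adjusted p = 0.00112). That list had 7 lower and 2 higher of 24 (6 and 2 with the offset; 3 or 4 lower without air replicate 5 or vehicle replicate 2 or 3). Sterol genes fell in 3 of 16 cases (3 with the offset) with none higher, including Hmgcs1 and Srebf2 (−0.34 at an adjusted p of 0.00606 and −0.38 at an adjusted p of 0.00633). Over all genes tested 18.4% were called, 10.7% lower and 7.65% higher (7.15% lower and 5.95% higher with the offset). Whether the sterol list differs from these shares was not tested.

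Enzymes that handle aldehydes, alcohols and foreign compounds included some of the larger rises. Of 28 tested, 7 were higher and 2 lower, with the same counts under the offset. Adh1, alcohol dehydrogenase, was at 9.12, 8.04, 10.2 and 13.0 CPM in air and 28.9, 26.3, 18.9 and 22.7 CPM in vehicle (1.27, SE 0.16, adjusted p = 0.00141), and no air library reached the lowest vehicle library. Gsta3, a glutathione transferase, read 5.92, 9.45, 8.37 and 12.8 CPM in air and 14.5, 15.7, 21.4 and 21.4 CPM in vehicle (0.99, SE 0.21, adjusted p = 0.0105). Mgst1, a microsomal glutathione transferase, and Cyp4b1, a cytochrome P450, changed by 0.69 at an adjusted p of 0.00579 and 0.51 at an adjusted p of 0.00398. The 2 that fell were Ahrr, a repressor of the aryl hydrocarbon receptor, and Aldh6a1 (−0.54 at an adjusted p of 0.012 and −0.42 at an adjusted p of 0.0139). Cyp1a1, the classical target of that receptor, had at most 2 counts in a library and was not tested. Of 27 NRF2 and antioxidant genes 5 rose and 2 fell (2 and 3 with the offset), Osgin1 by 0.83, adjusted p = 0.00557 and Sod1 by 0.35, adjusted p = 0.00398, while Txnrd1 fell (−0.37, adjusted p = 0.00422). The higher count of that list was 2 or 3 without air replicates 1, 2 or 5 or vehicle replicates 2 or 3.

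**Figure D3:**
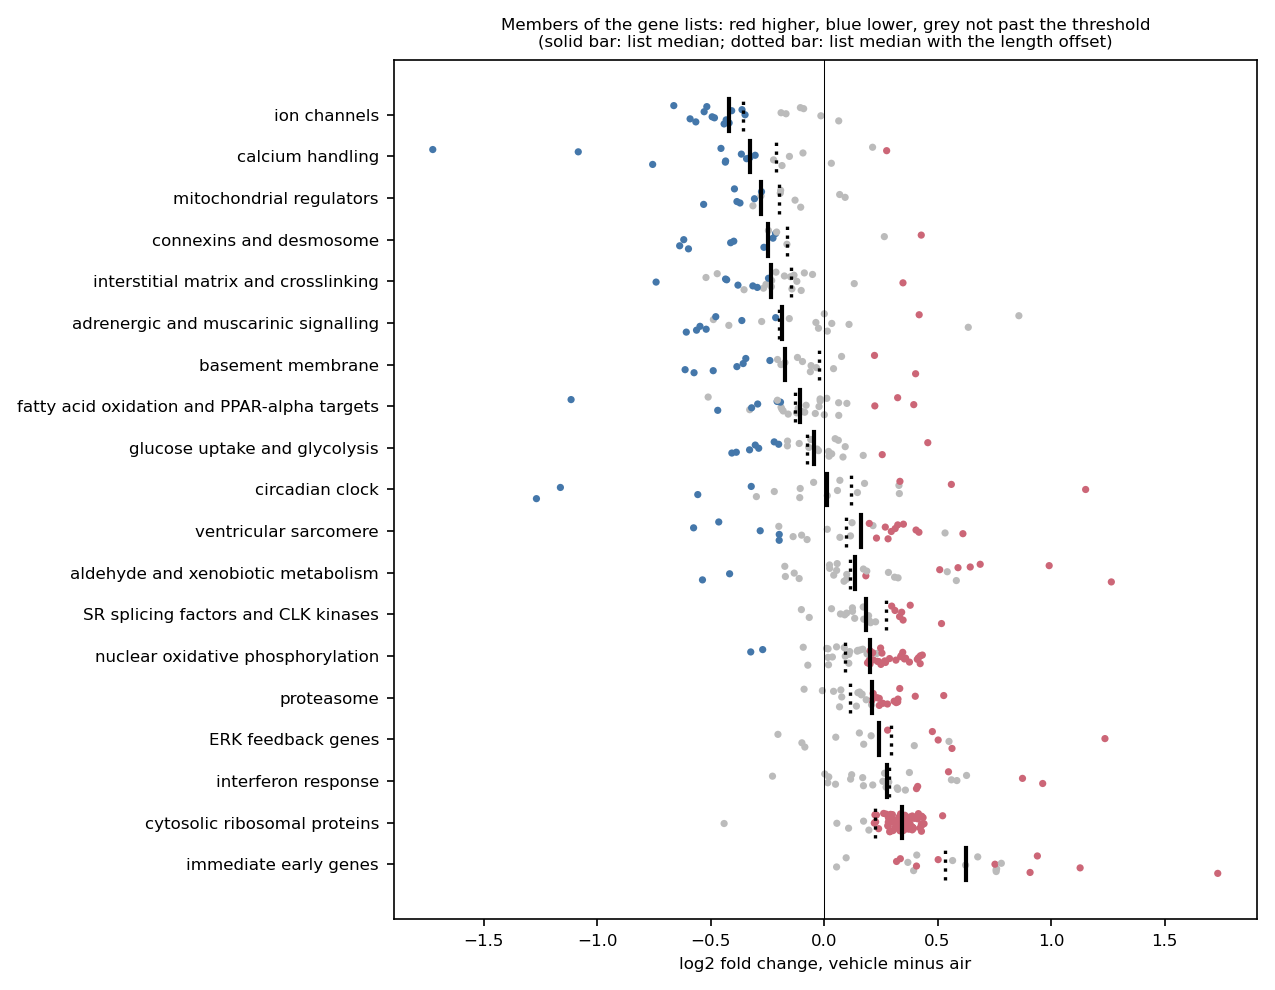
Log2 fold change (vehicle minus air) of every tested member of 19 gene lists; red points are called higher, blue called lower and grey not called, the solid bar is the list's median and the dotted bar its median with the length offset. Ion channels had the lowest median (−0.42) and immediate early genes the highest (0.62), and the 2 medians of each list have the same sign.

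Sat1, the enzyme that acetylates spermidine and spermine and so starts their breakdown, had the smallest p of all named genes. It was at 69.6, 60.7, 62.6 and 64.6 CPM in air and 105, 125, 115 and 111 CPM in vehicle, a change of 0.82 (SE 0.07, adjusted p = 0.00038). Cpox, which makes a late step of haem synthesis, had the smallest p among the genes that fell, with 51.6, 55.2, 53.1 and 51.9 CPM in air and 34.7, 32.8, 33.2 and 34.5 CPM in vehicle (−0.65, SE 0.06, adjusted p = 0.00079). Both genes kept their calls in all 8 fits without a library and with the offset (adjusted p = 0.000582 and 0.00151). Wnk1, a kinase of salt transport, Prox1, a transcription factor of heart and lymphatic vessels, and Pacsin2, which shapes membranes, also fell (−0.76, adjusted p = 0.000842, −0.75 at an adjusted p of 0.00111 and −0.58 at an adjusted p of 0.00111). Among the called genes whose groups did not overlap and whose mean level reached 1 on the log2 CPM scale, predicted gene models aside, the largest fall was that of Nt5c1a, a cytosolic nucleotidase that forms adenosine in muscle, with 5.99, 17.7, 7.18 and 16.3 CPM in air and 2.68, 0.792, 2.32 and 2.82 CPM in vehicle (−2.45, SE 0.48, adjusted p = 0.012). Air replicates 2 and 5 held more of it than air replicates 1 and 4, and the same split of the air libraries was seen in Hipk2, a stress kinase (39.4, 92.0, 38.5 and 81.5 CPM in air and 22.6, 20.5, 19.2 and 20.4 in vehicle, −1.61, SE 0.32, adjusted p = 0.0143), and in Pm20d2 (−1.71, adjusted p = 0.01). Without vehicle replicate 2 Hipk2 had an adjusted p of 0.0506.

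Clock genes shifted in opposite directions. Arntl and Clock, the activating pair of the core loop, fell, Arntl with 6.26, 3.19, 2.94 and 1.996 CPM in air and 1.45, 1.58, 1.505 and 1.38 CPM in vehicle (−1.27, SE 0.31, adjusted p = 0.0149) and Clock with 38.1, 34.3, 34.0 and 34.2 CPM in air and 24.4, 24.9, 27.4 and 18.9 CPM in vehicle (−0.56, SE 0.10, adjusted p = 0.00419). Nr1d1, a repressor of Arntl, fell as well (123, 100.15, 122 and 72.2 CPM in air, 41.6, 65.2, 34.0 and 45.9 CPM in vehicle, −1.16, SE 0.23, adjusted p = 0.0129). Nfil3, a repressor in the output loop, and Per2, of the negative limb, rose (1.15 at an adjusted p of 0.00835 and 0.56 at an adjusted p of 0.0417). In total 4 of 19 fell and 3 rose (4 and 4 with the offset; 1 rose without air replicate 1 or 4 or vehicle replicate 3). The time of day at which tissue was taken is not in the labels.

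Some splicing factors of the SR family and CLK kinases that phosphorylate them rose. The median exonic length of this list, over all annotated exons, is 7140.5 bases, which is not the length of their transcripts. Of 22 tested, 7 were higher without the offset and 10 with it, and none was lower in either fit. Clk1 was at 80.04, 65.4, 72.7 and 74.8 CPM in air and 95.4, 125, 92.2 and 107 CPM in vehicle (0.52, SE 0.10, adjusted p = 0.00467), and Tra2b changed by 0.38 (SE 0.08, adjusted p = 0.00698) and Srsf3 by 0.31 (SE 0.07, adjusted p = 0.0109). Without air replicate 5 or vehicle replicate 2 or 3 the count was 4, 3 and 4. By contrast 4 of 11 cardiac splicing regulators fell and none rose (2 and 1 with the offset, and 2 fell without air replicate 2 or 5 or vehicle replicate 2 or 3), including Qk and Rbfox2 (−0.55 at an adjusted p of 0.00295 and −0.45 at an adjusted p of 0.00232).

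Endothelial and immune transcripts were partly higher. Of 10 endothelium markers 3 rose and none fell (3 with the offset), with a summed level of 1504 to 1808 CPM in air and 1934 to 2184 CPM in vehicle. The larger part of the difference between these sums came from Fabp4. The mean log2 CPM of the 10 markers overlapped, at 6.82 to 7.01 in air and 6.96 to 7.20 in vehicle. Egfl7, a secreted endothelial factor, was at 132, 145, 131 and 133 CPM in air and 162, 234, 221 and 259 CPM in vehicle (0.69, SE 0.12, adjusted p = 0.00398), and Fabp4, the fatty acid carrier of capillaries and fat, at 522, 461, 625 and 438 CPM and 800.2, 903, 743 and 666 CPM (0.61, SE 0.12, adjusted p = 0.00655). Ly6c1, an antigen of endothelium and monocytes, rose too (0.68, SE 0.08, adjusted p = 0.00111). Pecam1, Cdh5, Kdr and Tek, which define the lineage, did not pass (0.14, 0.13, −0.04 and 0.09). Blood markers summed to 300.2 to 712 CPM in air and 652 to 897 CPM in vehicle with none of 5 called in either fit. The part of blood in the endothelial sums was not tested. The interferon list had 5 higher genes of 26 and none lower (3 with the offset), such as Oas2 with 2.86, 3.66, 3.44 and 3.43 CPM in air and 3.84, 5.79, 7.77 and 7.27 CPM in vehicle (0.87, SE 0.20, adjusted p = 0.0115). Its count ran from 2 without vehicle replicate 3 to 10 without vehicle replicate 1, and was 3 without air replicate 1 or vehicle replicate 4. Il1b, a cytokine of activated myeloid cells, was low but higher in each vehicle library (2.72, 2.95, 2.06 and 2.25 CPM in air, 7.15, 5.42, 5.39 and 8.33 CPM in vehicle, 1.39, SE 0.19, adjusted p = 0.00148). Among 22 inflammatory and NF-kB targets, however, only 3 rose and 1 fell (2 and none with the offset). Over all genes tested 18.4% were called. Macrophage markers had 3 of 11 higher (1 with the offset, and 1 without vehicle replicate 3), with sums of 162 to 183 CPM in air and 176 to 237 CPM in vehicle.

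Whether the vehicle difference depends on the starting age was tested as an interaction over 15 libraries, with 4 air and 3 vehicle libraries of the 3-week start. None of 15313 genes passed (0% called, edgeR quasi-likelihood test), while 1498 had an unadjusted p under 0.05. With DESeq2 the count was 24. A fit of the same 15 libraries also called 0 genes for the vehicle difference at the 3-month start itself. An interaction count of 0 therefore cannot show that the difference is the same at both starting ages. The outcome of the interaction test turned on single libraries: 1695 genes passed without vehicle replicate 4 of the 3-week start and 10 without air replicate 4 of that start. The genes with the smallest p were Cish, Abra and Phlda1 on the side of a larger value at the 3-month start and Upf2, Bcl11b and Ddx60 on the other, each with an adjusted p of 0.408. For Abra, 3-week libraries read 61.0 to 159.8 CPM in air and 51.6 to 78.1 CPM in vehicle (TMM scaling over 15 libraries), and the interaction was 1.85 (SE 0.37), from a log2 fold change of 0.98 at 3 months and −0.87 at 3 weeks. Phlda1 gave 1.57 (SE 0.36) and Cish, a suppressor of cytokine signalling, 1.71 (SE 0.31). For Atp2a2 the estimates were −0.77 at 3 months and −0.97 at 3 weeks, and the difference of 0.20 (SE 0.43) did not pass. The air libraries of Atf3 at the 3-week start spread from 3.72 to 142 CPM, and its interaction of 4.74 (SE 1.15) did not pass.

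Nicotine aerosol was also compared directly with vehicle aerosol. Over the 12 libraries of this starting age, 2405 of 14526 genes differed between nicotine and vehicle aerosol (16.6% called), 1476 higher with nicotine (10.2%) and 929 lower (6.4%), and 1722 passed with the length offset. Without vehicle replicate 2 the count was 1253 and without nicotine replicate 4 it was 1330. None passed with all 23 libraries in the fit, where 1889 had an unadjusted p under 0.05. The length trend differed in this contrast too. Spearman's rho with exonic length was −0.11, 0.158, 0.309 and 0.241 in nicotine replicates 1 to 4 and −0.301 to −0.213 in vehicle libraries. Its part in single genes cannot be told apart from other differences between nicotine and vehicle libraries. This contrast shares the vehicle libraries with the one above, so values are set side by side (TMM scaling over 12 libraries) and no overlap is counted. Pacsin2 was at 288, 295, 291 and 303 CPM in nicotine libraries, against 288, 321, 282 and 296 in air and 213, 189.9, 195 and 198 in vehicle, and nicotine exceeded vehicle by 0.56 (SE 0.06, adjusted p = 0.00023). Col4a2 was at 479, 497, 487 and 505 CPM with nicotine, above vehicle by 0.69 (SE 0.07, adjusted p = 0.00023), and Cpox at 50.8, 48.2, 62.1 and 55.7 CPM, above by 0.69 (SE 0.08, adjusted p = 0.00023). Clec3b, a plasminogen binding protein, was at 42.2, 41.1, 39.2 and 41.1 CPM with nicotine, 39.0, 36.9, 39.9 and 36.7 in air and 52.3, 56.3, 65.2 and 63.1 in vehicle, and was lower with nicotine than with vehicle by a log2 fold change of −0.53 (SE 0.07, adjusted p = 0.000849). Tcap, a Z-disc cap of titin, was at 1887, 1706, 1564 and 1723 CPM with nicotine and 2663, 2923, 2423 and 2424 with vehicle (−0.60, SE 0.08, adjusted p = 0.000559). In each of these 5 genes the nicotine and vehicle libraries did not overlap. Abra was at 206, 273, 154 and 213 CPM in nicotine libraries, and its difference from vehicle of −0.02 (SE 0.16, adjusted p = 0.945) did not pass. Phlda1, at 45.9, 48.3, 36.9 and 47.1 CPM with nicotine, did not pass either (−0.29, SE 0.16, adjusted p = 0.228).

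**Figure D4:**
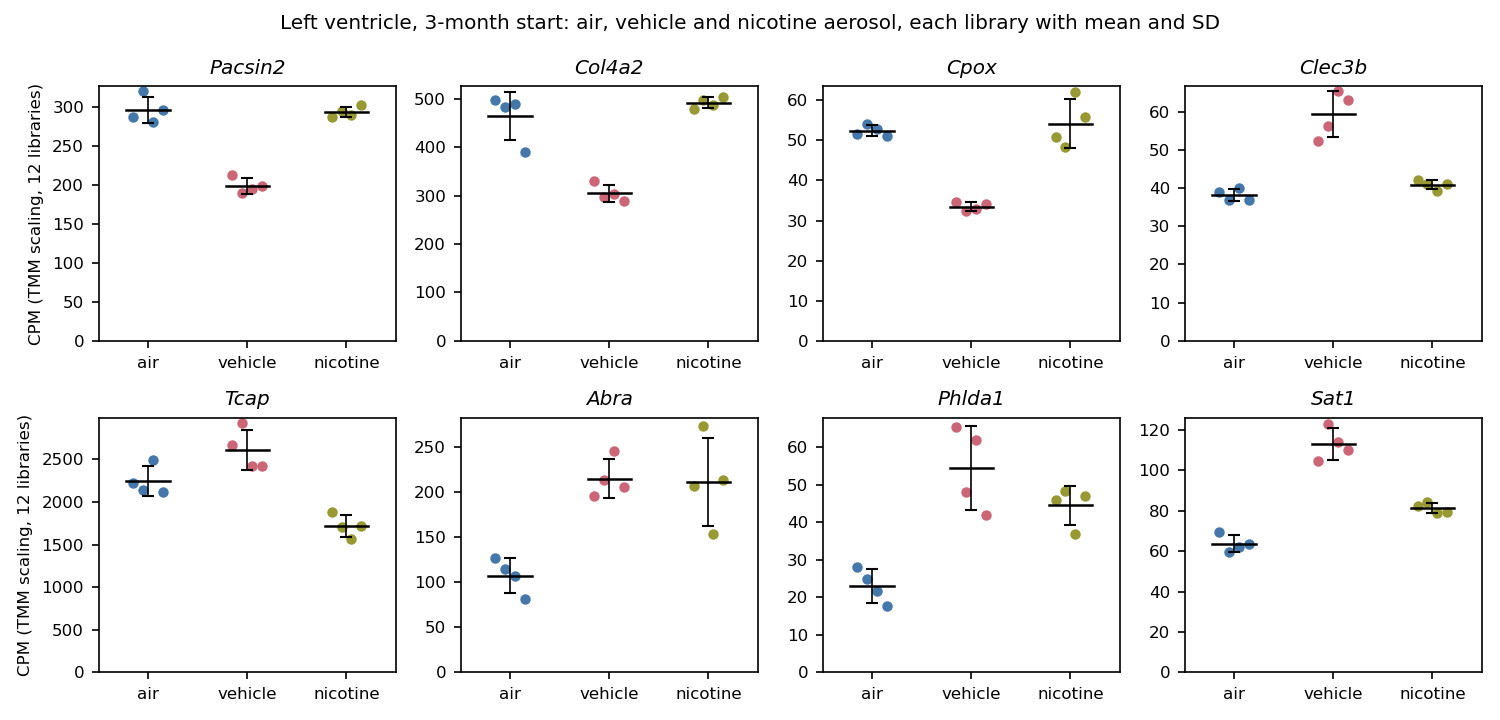
Level of 8 genes in air, vehicle and nicotine libraries of the 3-month start (CPM, TMM scaling over 12 libraries; points are libraries, bars the group mean and whiskers 1 SD). In the first 4 genes the nicotine libraries lie among or near the air libraries, in Abra and Phlda1 they lie among or near the vehicle libraries, in Sat1 between the groups, and in Tcap below both.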

How the data were processed

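RNA was taken from left ventricles, and the tools named in the submitters' processing notes were STAR 2.5.2b, Trimmomatic 0.36, DESeq2 and, for counting, featureCounts (Subread 1.5.2). No source used here names the genome build, the annotation or the strand setting. The authors deposited raw counts per gene, and only this table was used. It lists 49315 gene IDs, of which 49056 were given symbols from GENCODE vM21, as were exonic lengths. Promoter windows came from RefSeq (GRCm38.p6).

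Counts were tested with edgeR 4.0.16 (robust quasi-likelihood fit, R 4.3.3) over 8 libraries, with TMM scaling, edgeR's filter at a minimum count of 10 and Benjamini-Hochberg adjustment at 0.05. Reported CPM, log2 fold changes and p-values were computed here from the deposited counts. The length offset was a loess curve (span 0.5) per library. Alternatives used limma 3.58.1, DESeq2 1.42.0, other scaling, filters and library sets. The script was tested on simulated data.

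The choice of 8 libraries for the fit, the 35 gene lists, the 15 marker lists and the rule for named genes were made with earlier results of these data known. Named were the 10 rises and 10 falls of smallest p, the 5 of each with the largest change, up to 4 per list and a fixed set of cardiac genes; S100a1, Actc1, Ttn, Nebl, Myom1, Hspa4, Ndufs1, Sdha, Ahrr, Aldh6a1, Per2, Hspa5, Myl7, Myl4, Cdk2 and the endothelial markers that did not pass were named after their values were seen. One gene is not reported here. Intervals were not computed, since all values compare replicated libraries. Replicate numbers shared by the groups were not used as pairs in the main fit, and the labels do not say whether they mark pairs.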

Additional observations from a re-analysis of the deposited data

Results flagged for a closer look

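Within the groups of 4 libraries, 18 of 338 gene and group combinations of the 169 named genes had a single library far from the other 3 by Dixon's criterion (the gap to the nearest library over the group's range, at 95%), and chance flags about 1 in 20. In air replicate 5, Col4a2 (395 CPM) and Lbh (738 CPM) were low and Qk (398 CPM) was high. In air replicate 2, Whrn (59.9 CPM), Egfl7 (145 CPM) and Mrpl14 (78.4 CPM) were high. Clock (38.1 CPM) was high in air replicate 1 and Mgst1 (18.3 CPM) in air replicate 4. Vehicle replicate 2 was high for Etfb (343 CPM), Atp5e (567 CPM), Trim54 (501 CPM) and Mrpl33 (61.9 CPM) and low for Pm20d2 (5.18 CPM). Vehicle replicate 1 was high for Jph2 (918 CPM) and Lpin1 (153 CPM). Vehicle replicate 3 was high for Rgs1 (6.27 CPM) and low for Mrpl14 (84.3 CPM), and vehicle replicate 4 was low for Luc7l3 (73.1 CPM). No cause was tested for any of these values.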

How the results depend on the processing

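The vehicle count of 2635 genes ranged from 1314 to 3000 when 1 library was left out, and stayed within 1.5 times of itself with 12 libraries (2721), RLE scaling (2616), no filter (3066), DESeq2 (2800), limma-voom with quality weights (3234) and the length offset (1879; 2123 with 12 libraries; 2234 with GC content added). It was 0 with all 23 libraries, with 15 libraries and with the length offset over 23, where 2200, 2127 and 1929 genes had an unadjusted p under 0.05, and the biological coefficient of variation was 0.179 with 23 libraries against 0.104 with 8. With the length offset, the count was 1527, 1259, 1640 and 966 without air replicates 1, 2, 4 and 5, and 2486, 709, 802 and 1645 without vehicle replicates 1 to 4. Fits over 15 libraries, over 23 with the offset, with GC content, and with the offset and a library left out were chosen after seeing the data. The groups share 3 replicate numbers. Same-numbered air and vehicle libraries had correlations of deviations of 0.0795, −0.139 and −0.029, and pairs with different numbers had −0.224 to 0.230. With 3 such pairs these values cannot show whether a shared number stands for a shared batch, and the labels do not say. A replicate block on these 6 libraries gave 155 genes, 62 with the length offset, against 359 for the same 6 unpaired.

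The interaction count of 0 was 24 with DESeq2 and 0 to 1695 with a library left out. For nicotine against vehicle, the count of 2405 was 0 with 23 libraries (1889 at an unadjusted p under 0.05), 1351 with a replicate block, whose pairs had correlations of −0.0229, 0.0429, 0.0557 and −0.344, and 1253 to 2788 with a library left out. 

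Of 169 named genes, all kept direction and side with RLE scaling and with DESeq2, 135 did with the length offset and 8 with 23 libraries. Genes that changed sign had not passed: Nppa went from 0.06 to −0.15 with the length offset (8 or 12 libraries), −0.14 with GC content or 23 libraries added, −0.16 with the block and the offset, −0.0714 over 6 unpaired libraries and −0.12 to 0.37 with a library left out. With the offset, Nppa was −0.33, −0.24 and −0.12 without air replicates 1, 2 and 5 and −0.14, −0.045, −0.29 and −0.13 without vehicle replicates 1 to 4. Over the fits without a library, Postn ranged from −0.26 to 0.044 and Acta1 from −0.44 to 0.0058, and with the offset Postn was 0.17 without air replicate 4 and 0.0322 and 0.0397 without vehicle replicates 1 and 2. Causes were not tested. With 4 libraries per group, low genes such as Pakap and Rgs1, at a few CPM, are the least precise.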

Other observations

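Further genes outside the lists were among those with the smallest p values or, for Rgs1, the largest changes. Scgb1c1, a small secretoglobin, rose, with 7.56, 8.92, 8.68 and 8.17 CPM in air and 15.9, 17.1, 13.9 and 13.7 CPM in vehicle (0.86, SE 0.11, adjusted p = 0.00112). Igfbp3, which binds insulin-like growth factors, rose, with 22.1, 18.2, 18.3 and 22.01 CPM in air and 32.1, 30.5, 33.5 and 31.4 CPM in vehicle (0.66, SE 0.09, adjusted p = 0.00129), and Sra1, a steroid receptor RNA activator, changed by 0.59 (SE 0.07, adjusted p = 0.00112). Klhl33, Heca, Lbh and Whrn fell by −0.94, −0.71, −0.57 and −0.82 on the log2 scale, Lbh being a developmental transcription cofactor at 813, 804, 807 and 737 CPM in air and 578, 556, 513 and 489 CPM in vehicle. Rgs1, a regulator of G protein signalling in leukocytes, was low but higher in every vehicle library (1.16, 0.650, 2.37 and 2.81 CPM in air, 4.89, 5.05, 6.27 and 4.89 CPM in vehicle, 1.59, SE 0.32, adjusted p = 0.00716).

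Counts in other lists stand beside the 18.4% of all genes tested that were called (13.1% with the offset). Of 24 genes of the integrated stress and unfolded protein response, Atf4 and Ddit3 rose (0.35 at an adjusted p of 0.00943 and 0.56 at an adjusted p of 0.0242) and 3 fell (1 and 2 with the offset; 1 and 1 without vehicle replicate 2, and 1 and 2 without air replicate 1 or 5 or vehicle replicate 3), Atf6 among them (−0.49, adjusted p = 0.00747). Endoplasmic reticulum chaperones such as Hspa5 did not pass (−0.07, adjusted p = 0.571). Of 17 glucocorticoid targets 3 rose and 1 fell (2 and 1 with the offset), and none rose without air replicate 2 or vehicle replicate 2 or 3. Of 22 inflammatory and NF-kB targets 3 rose and 1 fell (2 and none with the offset), with 7 higher and none lower without vehicle replicate 4. Of 20 angiogenic endothelial genes 2 rose and 1 fell (3 and 1 with the offset). Nonsense-mediated decay factors had 2 higher and 2 lower of 14 (2 and 1 with the offset), none higher without air replicate 2 or 5 or vehicle replicate 2, and none either way without air replicate 5 or vehicle replicate 2. Among 23 cell cycle genes the call turned with the offset: Ccnd2 fell (−0.28, adjusted p = 0.0376) and none rose, whereas with the offset Cdk2 rose (adjusted p = 0.0486) and none fell. The list had a median log2 fold change of 0.19, with 19 genes above 0. With a library left out 0 to 2 of them were higher and 0 to 1 lower, and none fell without air replicate 2 or 5 or vehicle replicate 2 or 3. Of 9 smooth muscle and pericyte markers Abcc9 fell (−0.44, adjusted p = 0.0253), with none called with the offset or without air replicate 2 or 5 or vehicle replicate 2 or 3, and 2 rose without vehicle replicate 1. None of 5 sex-linked genes was called in either fit. In the 8 libraries Y-linked Ddx3y was at 70.5 to 102 CPM and Xist at 0.552 to 1.99 CPM (scaled to total counts only), a male pattern in each. No marker passed in either fit for adipocytes (4 tested), B and plasma cells (4), fibroblasts (9), mesothelium (1), neurons and Schwann cells (4), neutrophils (5), skeletal muscle (1) or T and NK cells (2).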
